A study of Mus musculus with 3 samples.

Results

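The cells described are the C1q-negative myeloid barcodes of the mouse uterus at pregnancy day 7.5. They were chosen by measured values, as droplet barcodes with at least 3 UMIs (unique molecular identifiers, the tags by which captured transcripts are counted) summed over the monocyte genes Ly6c2, Ccr2, Chil3, F13a1 and Lyz2, and fewer than 3 summed over the macrophage complement genes C1qa, C1qb and C1qc. Barcodes with at least 3 UMIs of natural killer (NK) genes (Ncr1, Klrb1c, Nkg7, Prf1, Il2rb, Klrd1) or of epithelial genes (Epcam, Cdh1, Cldn3, Cldn4), with any UMI of Cd3e or Cd79a, or with at least 5 UMIs of the decidual gene Tdo2 per 10000 were left out. The rule found 118 of the 1825 barcodes that had at least 500 detected genes and at most 20% mitochondrial UMIs, which is 6.47% (exact 95% interval 5.38 to 7.69). The study profiled single cells of the whole uterus during early pregnancy. The 1 library used came from females that were mated and dissected at day 7.5 after being kept with littermates on normal chow to the age of 8 weeks, and its genotype is not given in the labels. Trypsin freed the cells, droplets captured them and 3′ ends were counted, and the labels give no sort, no number of animals and no separation of implantation sites. Samples labelled Prl8a2icre/+ Sun1-GFPLsL/+ and Sun1-GFPLsL/+ are not analysed here.

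Monocytes are made in the bone marrow, leave it by way of the chemokine receptor Ccr2 and enter tissues, where they can turn into macrophages or cells that resemble dendritic cells. In the mouse, classical monocytes carry Ly6C on their surface, while nonclassical monocytes carry little Ly6C, patrol the vessel wall and depend on the nuclear receptor gene Nr4a1. Dendritic cells take up antigen and show it to T cells on MHC class II, and tissue macrophages clear debris and make the complement protein C1q. In the pregnant uterus the decidua keeps macrophages and some dendritic cells close to the conceptus, and monocytes are their supply from blood.

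The promoters of 4 genes detected in the groups described below are shown first. Siglech and Xcr1 are among the genes by which groups of members were divided, and Ly6c2 and F13a1 are monocyte genes of the rule. Of the 30 members with F13a1, 27 were among the remaining members. Ly6c2 was in 31 of the 69 remaining members, but also in all 5 members of the Siglech group and in 7 of 13 of the Ace group. Ly6c2 marks classical monocytes and lies on the minus strand with its upstream window at chr15:75111972-75112221. F13a1 encodes the A chain of coagulation factor XIII and lies on the minus strand, with its window at chr13:37050245-37050494. Siglech encodes a sialic acid-binding receptor of plasmacytoid dendritic cells and lies on the plus strand, with its window at chr7:55767934-55768183. Xcr1 encodes the chemokine receptor of cross-presenting dendritic cells and lies on the minus strand, with its window at chr9:123862030-123862279. Each line gives the 250 bases before a RefSeq start on GRCm38.p6 (the first listed of 2 for Ly6c2 and for F13a1), 5′ to 3′ on the gene's strand, with matches to the motifs described below in capitals. The bases shortly after the start were found in 0 GENCODE transcripts of Ly6c2 and in 1 to 3 of each other gene, so the Ly6c2 start is the least certain.
Ly6c2: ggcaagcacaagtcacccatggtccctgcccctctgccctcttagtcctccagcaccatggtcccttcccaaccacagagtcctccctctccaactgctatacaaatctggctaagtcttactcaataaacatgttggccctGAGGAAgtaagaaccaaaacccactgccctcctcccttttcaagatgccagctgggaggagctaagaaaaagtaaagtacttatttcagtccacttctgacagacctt
F13a1: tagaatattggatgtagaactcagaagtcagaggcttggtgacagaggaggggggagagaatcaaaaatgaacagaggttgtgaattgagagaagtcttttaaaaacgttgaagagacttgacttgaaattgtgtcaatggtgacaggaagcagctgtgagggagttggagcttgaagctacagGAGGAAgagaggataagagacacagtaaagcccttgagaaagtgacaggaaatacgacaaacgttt
Siglech: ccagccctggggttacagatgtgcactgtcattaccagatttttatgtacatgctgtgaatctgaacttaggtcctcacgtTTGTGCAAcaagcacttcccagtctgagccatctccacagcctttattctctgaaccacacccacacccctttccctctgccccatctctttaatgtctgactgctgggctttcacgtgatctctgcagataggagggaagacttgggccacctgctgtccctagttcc
Xcr1: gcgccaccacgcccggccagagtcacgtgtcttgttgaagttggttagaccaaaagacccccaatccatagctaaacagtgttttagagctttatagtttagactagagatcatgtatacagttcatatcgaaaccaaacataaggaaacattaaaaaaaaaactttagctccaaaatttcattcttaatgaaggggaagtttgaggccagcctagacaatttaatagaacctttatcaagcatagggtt
The motifs searched on both strands were GAGGAA (a core bound by PU.1, the factor of myeloid cells encoded by Spi1), TTGCNNAA (bound by C/EBP factors) and a pair of GAAA with 2 bases between them (bound by interferon regulatory factors). Ly6c2 held GAGGAA 108 bases and F13a1 66 bases before the start. Siglech held TTGCNNAA on the reverse strand 169 bases before the start, and Xcr1 held no match in this window. Of 27025 promoter windows of this length, 23.1% held GAGGAA, 9.55% held TTGCNNAA and 3.04% held the GAAA pair. Lyz2, Ccr2 and Chil3 were searched too and held no match in their windows.

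How the members passed the rule is given here as a description of the choice. Lyz2, the lysozyme of phagocytes, had a UMI in 91 of 118 members and Ccr2 in 94, while Ly6c2 was present in 47, F13a1 in 30 and Chil3, which encodes a chitinase-like protein, in 22. Lyz2 alone reached 3 UMIs in 80 members and Ccr2 alone in 64, and 70 members had UMIs of both. The summed UMIs of the 5 genes ran from 3 to 148 with a median of 8. Between them, 27 members had UMIs of 1 of the 5 genes, 49 of 2, 16 of 3, 19 of 4 and 7 of all 5. Members with no other gene of the 5 numbered 12 for Ccr2, 12 for Lyz2 and 3 for Ly6c2, and 57 members had 0 UMIs of Ly6c2, Chil3 and F13a1. All 22 members with Chil3 also had Lyz2, 15 of them had Ly6c2 and 13 had F13a1.

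**Figure D1:**
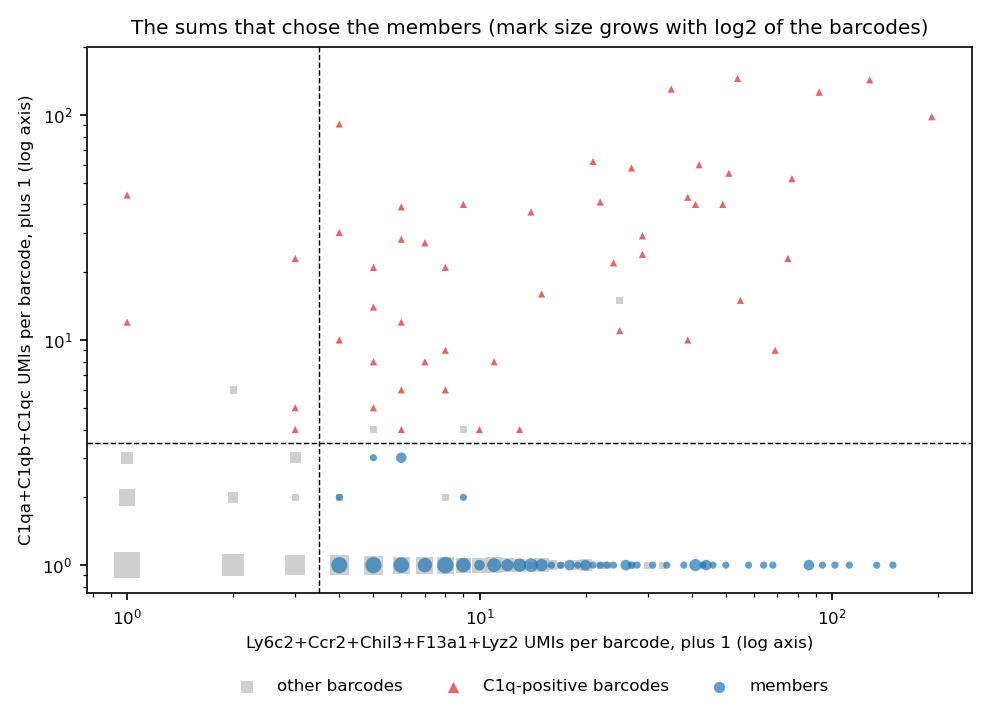
Each point is a barcode placed by its summed UMIs of the 5 monocyte genes (x axis) and of the 3 C1q genes (y axis), both plus 1 on log axes, with a larger mark where more barcodes share a place. Of the 335 barcodes with a monocyte sum of at least 3, the 118 members lie below the dashed line between 2 and 3 C1q UMIs, and 48 barcodes lie above it.

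Most of the 335 barcodes with a monocyte sum of at least 3 were turned away by other genes. NK genes excluded 160 of them, 132 by NK genes alone, and C1q excluded 48, 45 by C1q alone. Just inside the edge of the rule, 12 members had a sum of exactly 3. Of their summed UMIs, 0.622% came from 12 pan-myeloid genes, with a median of 8.5 such UMIs per barcode. Just outside, 16 barcodes that met every other condition had a sum of exactly 2, with 1.12% and a median of 6. A further 68 had a sum of exactly 1, with 0.304% and a median of 4. The leukocyte gene Ptprc was present in 10 of those 12 and in 13 of those 16. On the C1q side, 113 members had 0 C1q UMIs, 2 had 1 and 3 had 2, and 4 barcodes with 3 or 4 C1q UMIs lay just outside.

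The library held 2775 barcodes and the 1825 that passed the quality filter held 14709919 UMIs. Members held 579916 UMIs, from 803 to 24766 per barcode with a median of 3347 and a median of 1510 detected genes. They had a median mitochondrial share of 2.99%, against 4.30% in the other 1707 barcodes, whose median was 4578 UMIs. With 1 library there are no replicates, so nothing below could be tested against the spread between animals and no p-value is given. Intervals are exact at 95% and show the error of counting alone.

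The label of monocytes and related myeloid cells was then set against markers. Genes shared by leukocytes and myeloid cells were widespread among the members. Ptprc, which encodes CD45, was detected in 96.6% of members (87.0% of the 77 members that could be thinned to 2000 UMIs), and in 29.6% of epithelial-gene barcodes (6.39% thinned), which should lack it. Median depths were 3347 UMIs in members and 12093.5 UMIs in the 324 epithelial-gene barcodes. Tyrobp, the adaptor of activating myeloid receptors, was in 78.0% of members against 1.54% of epithelial-gene barcodes, and thinned in 76.6% against 0%. Spi1 (PU.1) was in 51.7% against 0.617%, and thinned in 49.4% against 0%. Csf1r, the receptor through which CSF1 keeps monocytes and macrophages alive, was in 50.8% against 3.09%, and thinned in 39.0% against 1.28%. In each of these pairs the members' share lay above the share in epithelium.

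Neutrophils share several of these genes, but most neutrophil markers were nearly absent from the members. S100a8 had 1 UMI in all members, and S100a9, Ly6g and Retnlg had 0, where 0 of 118 allows a share of up to 2.54% of members with a UMI. The whole library held 113 UMIs of S100a8 and 130 of S100a9. They lay mostly in 4 barcodes with at least 3 UMIs of these genes, all 4 with a monocyte sum under 3 and none a member. Of 15 neutrophil markers 10 were at 0 in the members, and of 12 markers of eosinophils, basophils and mast cells 10 were at 0. Not all neutrophil markers were low. Of 5 tested against the other 1707 barcodes, 2 (Csf3r and G0s2) were at least 2-fold higher in members and 1 (Ltf) was lower. At least 3 UMIs of the neutrophil list were found in 4 members. The near-identical paralogs Ly6c1 (3.45 CPM, the gene's UMIs after all groups are scaled to 1 common total) and Lyz1 (6.90) were close to absent, beside 485 for Ly6c2 and 2461 for Lyz2.

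Markers of the cell types that the rule excluded stood low, and those of dendritic cells did not. NK markers summed to 100 CPM in members and 8609 in NK-gene barcodes, and epithelial markers to 89.7 against 5403 in epithelial-gene barcodes. The rule set no condition on stromal, endothelial and mesothelial markers. Stromal markers summed to 322 CPM in members and to 4624 in the 1057 barcodes of no named class, endothelial markers to 65.5 against 643 and mesothelial markers to 15.5 against 511. At least 3 UMIs of the stromal list were found in 6 members. Most of the list's UMIs lay in a few of them, with 83 in a member of the Cd209a and Ccr7 group and 45 in a remaining member, groups described below. The doublet caller Scrublet marked 13 of 1825 barcodes (0.712%) and 2 members, so undetected doublets may remain. Dendritic genes, described next, were strong in 36 members. The name monocyte thus covers only some of the barcodes, and they are called C1q-negative myeloid barcodes or members here.

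To show how members differ, they were divided by marker genes, with at least 3 UMIs needed and conditions applied in turn, a division chosen after values had been seen. The first condition was Siglech (5 members, 4.24%), the second was Xcr1, Clec9a and Itgae summed (16 members, 13.6%), the third was Cd209a and Ccr7 summed (15 members, 12.7%), and the fourth was Ace, Adgre4 and Treml4 summed (13 members, 11%). The remaining 69 members (58.5%) met none. The conditions overlapped little, since 46 members met 1 and 3 met more than 1. At a sum of exactly 3, just inside the condition, lay 0, 1, 2 and 2 members of the 4 groups, and at exactly 2, just outside, lay 0, 0, 2 and 5. The groups differed in depth, with medians of 5780, 10982, 7749, 3455 and 1755 UMIs, so absence of a gene weighs least in the remaining members. Genes named for the groups below were chosen after their values had been seen.

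**Figure D2:**
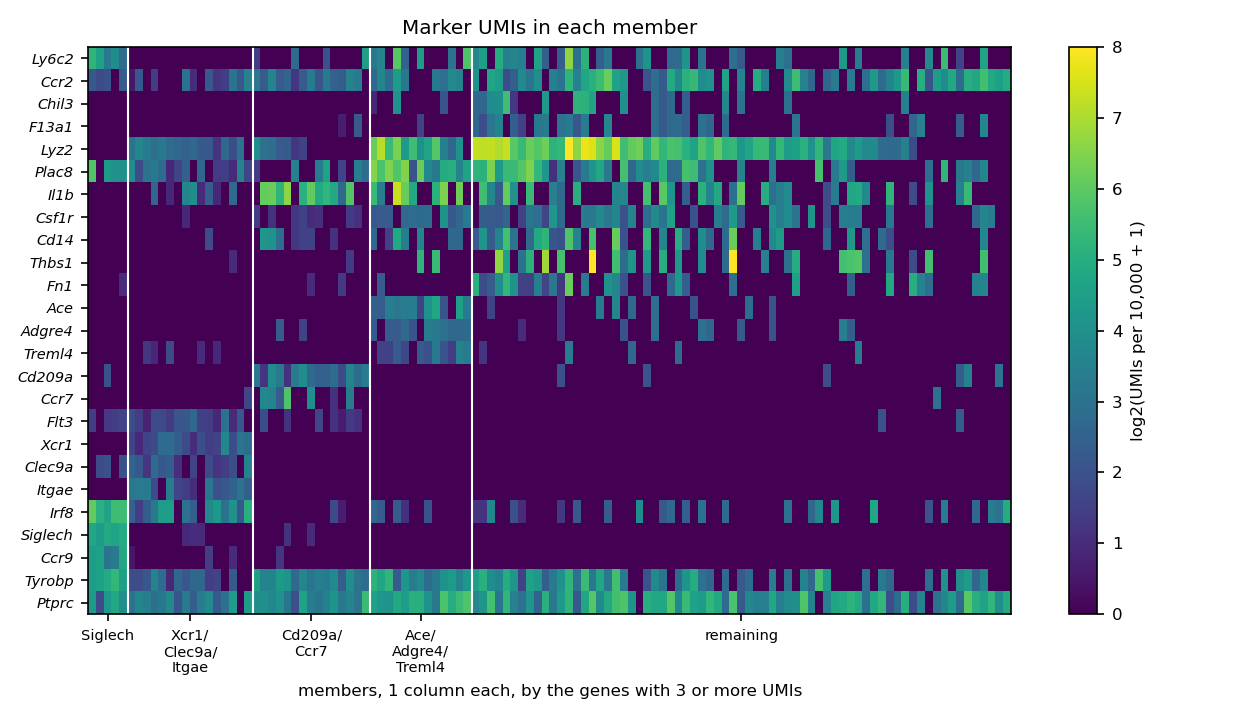
The map gives log2 of UMIs per 10000 plus 1 (colour) of 25 genes (y axis) in each of the 118 members (x axis), ordered by group and then by Lyz2. Siglech and Ccr9 stand out in the 5 members of the first group, and Xcr1 in all 16 and Itgae in 14 members of the second. Lyz2 was in 57 of the 69 remaining members, but also in 15 of 16 members of the second group and 12 of 13 of the fourth.

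The Siglech group was small and sharply set apart. Its 5 members had 8, 14, 15, 19 and 29 Siglech UMIs, while the other 5 members with any Siglech had 1 each. Ly6c2 brought these members in, with 6 to 21 UMIs in 5 of 5, although Lyz2, Chil3, F13a1, Il1b, Csf1r and Cd14 were all at 0. Ccr9, the chemokine receptor of gut-homing and plasmacytoid cells, had 5 to 27 UMIs per member and stood at 1818 CPM, against 22 in the Xcr1 group and 0 in the remaining members. Irf8, a transcription factor needed by several dendritic lineages, had 13 to 44 UMIs and stood at 4295 CPM. The plasmacytoid transcription factor genes Tcf4 (3072 CPM), Spib (1223) and Runx2 (752) were higher here than in any other of the groups. Bst2, a surface protein of plasmacytoid cells that interferon raises, stood at 2194 CPM against 154 in the Xcr1 group and 279 in the remaining members. Ly6d had 23 UMIs, all within 4 of these 5 members. Ighm, the immunoglobulin heavy chain gene, was in 5 of 5 members at 1787 CPM. In all, 10 members had any Siglech, which was 8.47% of members against 0.309% of epithelial-gene barcodes, and thinned 7.79% against 0.319%.

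The 16 members of the Xcr1, Clec9a and Itgae group carried genes of dendritic cells that cross-present antigen. Xcr1 was in 16 of 16 with 1 to 7 UMIs and a median of 3, Clec9a, a receptor for dead-cell actin, in 13, and Itgae, the CD103 integrin chain, in 14. All 14 members with Itgae had Xcr1. Flt3, the receptor for the growth factor of dendritic cells, was in 15 of 16, while Csf1r was in 1 of 16. Cst3, which encodes the protease inhibitor cystatin C, stood at 16113 CPM here against 2009 in the Cd209a and Ccr7 group and 1256 in the remaining members. Naaa, which encodes a lysosomal amidase, stood at 1426 against 66.1 and 129, and Wdfy4, which is needed for cross-presentation, at 606 against 82.7 and 59.0. Tlr3, the sensor of double-stranded RNA, had 31 of its 32 member UMIs in 12 of these 16. Lyz2 was in 15 of 16 with a median of 5 UMIs and Ccr2 in 11, while Ly6c2, Chil3 and F13a1 were at 0. Lyz2 stood at 551 CPM in this group, against 5608 in the remaining members. Zeb2, a transcription factor gene of monocytes, was at 0 in all 16, and Id2, the inhibitor of DNA binding that this lineage needs, stood at 710.4 CPM.

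The 15 members of the Cd209a and Ccr7 group carried genes of conventional dendritic cells. Cd209a, a lectin of dendritic cells of the second conventional type, was in 15 of 15 with 1 to 11 UMIs and a median of 5. Ccr7, the receptor that guides dendritic cells to lymph nodes, was in 7 of them, with up to 43 UMIs in 1 member. Ccr2 was in 14 of 15 and Lyz2 in 7. Flt3 was in only 7 of 15, while Csf1r was in 8, Cd14 in 7 and Ly6c2 in 4, so genes of monocytes were present too. Il1b, which encodes interleukin 1 beta, was in 11 of 15 with a median of 25 UMIs and a highest value of 76, or 3456 CPM. The Ace group stood next to it at 3417 CPM of Il1b, from 8 of 13 members. Il1r2, the decoy receptor that binds interleukin 1, was in 10 of 15 at 562 CPM against 53.7 in the remaining members. Irf4, a factor of this dendritic type, was in 7 of 15 at 165 CPM against 0 in the Xcr1 group, and Mgl2, a lectin, had 20 of 24 member UMIs in 5 members here. Ccl22, which draws regulatory T cells, reached 422 CPM from 5 members. Il12b had 24 UMIs in 4 members, of which 21 lay in 1 member of this group.

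The 13 members of the Ace, Adgre4 and Treml4 group carried genes of nonclassical monocytes. Ace, the angiotensin-converting enzyme, was in 12, Adgre4 in 11 and Treml4 in 11. Treml4 also had 9 UMIs in 5 members of the Xcr1 group. Plac8 was in 13 of 13 with 1 to 101 UMIs and a median of 14, at 5802 CPM against 2211 in the remaining members and 479 in the Xcr1 group. Csf1r was in 11 of 13, Lyz2 in 12 and Ly6c2 in 7, while Fn1, which encodes fibronectin, was in 1. Against the pattern of nonclassical monocytes, Ly6c2 did not stand low here. It had 68 of the group's 59113 UMIs, and 149 of 186347 in the remaining members. Pou2f2, a factor gene of nonclassical monocytes, stood at 964 CPM against 381 in the remaining members, Itgal, the LFA-1 integrin chain, at 1167 against 574, and Gngt2, a G protein subunit gene, at 1489 against 236. Nr4a1 stood at 2487 CPM against 1181 in the remaining members. Nr4a1 is also an immediate early gene, and the list of immediate early and heat shock genes summed to 50090 CPM in this group, against 28055 in the remaining members and 4326 in the Siglech group. Its part in the level of Nr4a1 was not tested. Interferon response genes summed to 6107 CPM here, to 3714 in the remaining members and to 589 in the Xcr1 group. Irf7, the master factor of that response, stood at 879.7 against 333 and 33.0.

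The 69 remaining members carried the classical monocyte genes together with matrix and coagulation genes. Lyz2 was in 57 with a median of 5 and a highest value of 119 UMIs, Ccr2 in 56, Ly6c2 in 31, F13a1 in 27 and Chil3 in 19. Of the 89 UMIs of Chil3 in members, 83 lay here. Thbs1, which encodes thrombospondin 1 and activates latent TGF-beta, was in 27 with up to 84 UMIs, at 2039 CPM against 406 in the Ace group and 5.51 in the Xcr1 group. Fn1 was in 30, at 724 CPM against 33.8 and 0. Complement and coagulation genes summed to 3316 CPM here and to 93.6 in the Xcr1 group. Hp (haptoglobin) had 41 of its 45 member UMIs here, F10 (coagulation factor X) 27 of 35, and Vcan (versican) 32 of 36. Cd14, the co-receptor for endotoxin, was in 33 members, and Csf1r in 40. This remainder was not uniform. Ly6c2, Chil3 or F13a1 was present in 42 and absent in 27, and 18 had over 1% of their UMIs from MHC class II genes. Thbs1 and Fn1 were found together in 17 members.

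The share of UMIs from MHC class II genes varied widely among the members. H2-Aa, H2-Ab1 and H2-Eb1, which encode class II chains, and Cd74, the invariant chain that guards their groove, together gave from 0% to 6.27% of a member's UMIs. Medians were 2.47% in the Xcr1 group, 2.85% in the Cd209a and Ccr7 group, 0.743% in the Siglech group, 0.0541% in the Ace group and 0.0996% in the remaining members. The Xcr1 group ranged from 1.70% to 3.82% and the Ace group from 0% to 0.724%, so these groups did not overlap. The remaining members ran from 0% to 4.48% and overlapped with every other group, and 26 of the 31 members at 0% were among them. Their median depth was 1755 UMIs, and its part in these zeros was not tested.

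**Figure D3:**
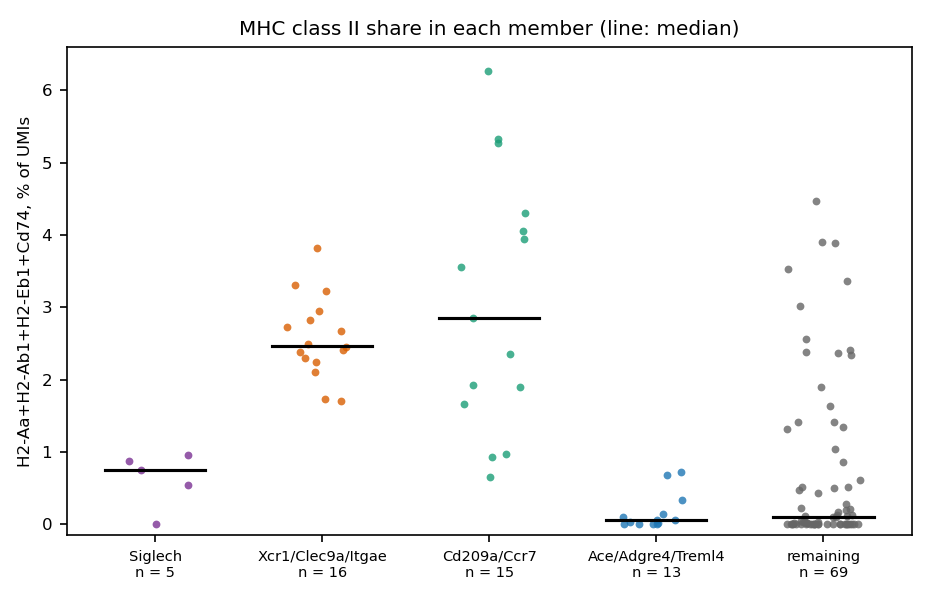
Each point is a member, with the percent of its UMIs from H2-Aa, H2-Ab1, H2-Eb1 and Cd74 on the y axis, by group on the x axis, and a bar at each group's median. The 16 members of the Xcr1 group all lie at 1.70% or above, the 13 of the Ace group all lie at 0.724% or below, and the remaining members spread from 0% to 4.48%.

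Divided at the median MHC class II share, the members differed in nearly all of the monocyte genes. The 59 high members (0.512% to 6.27%, median depth 6372 UMIs) were set against the 59 low ones (0% to 0.504%, median depth 2304). Over 1932 genes with at least 50 UMIs over both sides, 191 (9.89%) were at least 2-fold higher in the high members with an interval excluding 1, and 246 (12.7%) were lower. The median log2 ratio over these genes was -0.06. When dendritic groups were left out, the members kept were divided again at their own median. The counts were then 73 and 86 without the Siglech and Xcr1 groups, and 32 and 26 without the Cd209a and Ccr7 group too. Fewer genes were tested, so these counts do not show whether the shares fell. The counts by gene list that follow are of all members. Of 13 monocyte genes tested 12 were lower in the high members and 0 higher (median log2 ratio -1.60). Fn1 stood at 67.6 against 638 CPM, Ms4a4c at 113 against 499, and Ifitm6 at 55.1 against 399. The admitting genes followed the same line, with Lyz2 at 688 against 6388 and Chil3 at 5.01 against 482. Of 6 genes of cross-presenting dendritic cells 5 were higher and 0 lower (median log2 ratio 3.09), with Naaa at 686 against 149.7. Genes higher in the high members included Flt3 (143 against 5.55) and the chemokine gene Cxcl16, which draws T cells (445 against 11.1), while Ccr7 and Ccl22 each stood at 220.2 against 0. Il1b did not divide this way, at 1534 against 1647. Neutrophil-attracting Cxcl2 (265 against 2845), the cytokine gene Osm (25.0 against 377) and the haem oxygenase gene Hmox1 (62.6 against 433) were lower in the high members. Of 18 immediate early and heat shock genes 11 were lower and 1 higher (median log2 ratio -1.13).

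Division by Ly6c2 gave another view of the monocyte end. The 47 members with Ly6c2 (median depth 3950 UMIs) were set against the 71 without (3298), and of 1931 genes 193 (9.99%) were higher and 144 (7.46%) lower. The median log2 ratio was 0.10. These counts were 92 and 62 without the Siglech and Xcr1 groups, and 41 and 15 without all 3 groups with dendritic genes. Fewer genes were tested here too, so a change in the shares is not shown, and the list counts that follow are of all members. Monocyte genes were higher for 12 of 13 tested and lower for 0 (median log2 ratio 1.53). Ifitm6 stood at 370.1 against 52.6 CPM, Fn1 at 485 against 118 and Thbs1 at 1510.5 against 274. Interferon response genes were higher for 7 of 10 and lower for 0 (median log2 ratio 1.12), with Irf7 at 545 against 94.7 and Oas3, a sensor of viral RNA, at 185 against 47.4. All 5 plasmacytoid genes tested were higher, with Siglech at 425 against 13.2, and all 5 members of the Siglech group are on that side. Of 11 chemokines 7 were higher and 4 lower: Ccl6, which monocytes and macrophages secrete, stood at 465 against 79.0 and Cxcl2 at 2161 against 492, while Cxcl16 stood at 45.0 against 450.0. Genes of cross-presenting dendritic cells were lower for 5 of 6 and MHC class II genes for 6 of 10, with 0 higher in either list (median log2 ratios -2.83 and -1.41). Xcr1, Itgae, Ccr7 and Ccl22 were at 0 in the members with Ly6c2. Cst3 stood at 1335 against 8766 CPM, and 2926 of its 3598 UMIs lay in the Xcr1 group.

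The rule itself sets the members against the other 1707 barcodes, so these values describe the choice and support nothing further. Of 12170 genes with at least 50 UMIs over both sides, 1209 (9.93%) were at least 2-fold higher in members and 2704 (22.2%) lower. The median log2 ratio was -0.42. Members held 485 CPM of Ly6c2 (429.5 to 545) against 7.57 in the others, 702 of Ccr2 (635 to 773) against 109, 153 of Chil3 (123 to 189) against 0.0708, 107 of F13a1 (82.0 to 137) against 6.65 and 2461 of Lyz2 (2335 to 2592) against 81.2. Of the genes that the rule did not use, Plac8 stood at 1652 against 413 and Il1b at 1569 against 109. Plac8 was also frequent in epithelium, in 48.8% of epithelial-gene barcodes and 66.9% of members (20.4% and 74.0% thinned), whereas Il1b was in 1.85% and 51.7% (0% and 54.5% thinned). Lists of MHC class II (16 of 16 higher), nonclassical monocyte (8 of 8) and pan-myeloid genes (11 of 12) held 0 genes that were lower. Oas3 (94.8 against 2.12), Klra2 (82.8 against 1.56), Kmo of tryptophan breakdown (102 against 2.41) and Gpr35 (121 against 2.83) were among the genes with the highest ratios outside the rule.

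The C1q-positive macrophages were taken as the class most like the members, although similarity between classes was not measured. The rest of the values set the members beside them. These 50 barcodes passed the same filters with at least 3 C1q UMIs and no demand on the monocyte genes, and held 411981 UMIs with a median of 6385.5. Members held more transcript of many adhesion and interferon response genes and, through the groups with dendritic genes, of cross-presenting dendritic genes, and less of most macrophage identity, scavenger, chemokine and cell division genes tested. Of 3245 genes with at least 50 UMIs over both sides, 351 (10.8%) were at least 2-fold higher in members and 314 (9.68%) lower, and the median log2 ratio was -0.03. C1q divides these barcodes by the rule, and the members but not the macrophages had to carry Ly6c2, Ccr2, Chil3, F13a1 or Lyz2, so the counts are a description with no test. Because dendritic genes marked 36 members, counts are also given for the other 82, where 315 of 2297 genes (13.7%) were higher and 318 (13.8%) lower.

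**Figure D4:**
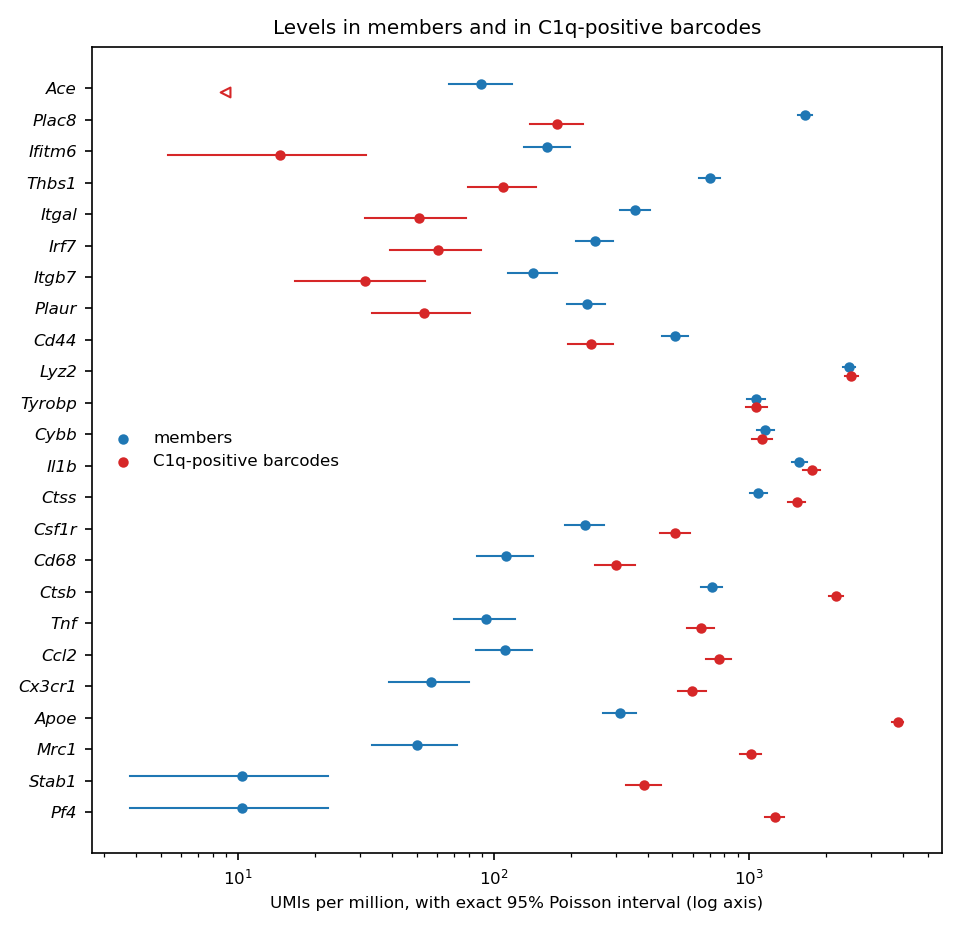
Points give CPM (x axis, log scale) of 24 genes in the members and in the C1q-positive macrophages, lines the exact 95% Poisson interval, and open marks the upper limit where 0 UMIs were counted. Plac8 lies at 1652 in members against 177, Lyz2 at 2461 against 2510, and Apoe at 312 against 3811, with genes picked after their values were seen to show all directions. In the 82 members outside the groups with dendritic genes, which are not drawn, Lyz2 stood at 5296.

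Of 13 monocyte genes that the rule did not use 5 were higher in members, 7 met neither call and 1, the cathepsin gene Ctsc, was lower (median log2 ratio 0.86), and among the 82 members 9 were higher and 0 lower (1.69). The rule's own genes are given as a description of the choice. Ly6c2 stood at 485 against 102 CPM, Lyz2 at 2461 against 2510 and F13a1 at 107 against 201, and Chil3 had 89 UMIs against 0. In the 82 members Ly6c2 stood at 884, Lyz2 at 5296 and F13a1 at 236, so the direction of F13a1 turned and Lyz2 was no longer level. Outside the rule, Ifitm6 was 11.1-fold higher (4.93 to 31.1), or 24.1-fold with the 82 members. Plac8 stood at 1652 against 177, a ratio of 9.32 (7.34 to 12), and at 3076 in the 82 members. Thbs1 was 6.41-fold higher (4.70 to 8.93), and 15.1-fold in the 82 members. Ace had 52 UMIs against 0, at least 12.3-fold higher, where 3 UMIs over the group are allowed for a count of 0, whereas Cx3cr1, the fractalkine receptor of nonclassical monocytes and many macrophages, was 10.5-fold lower (7.31 to 15.6) and 4.75-fold with the 82 members. Of 6 nonclassical genes 4 were higher and 1, Cx3cr1, was lower, and with the 82 members these were 4 and 1 of 5.

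Of 7 genes of cross-presenting dendritic cells 6 were higher and 0 lower (median log2 ratio 2.49), and of 5 plasmacytoid genes 3 were higher, with Xcr1, Clec9a, Itgae, Siglech and Ccr9 all at 0 in the macrophages. Genes of the second conventional dendritic type were mixed. Of 6 tested 3 were higher and 2 lower (median log2 ratio 0.40), and the list summed to 997 CPM in members against 1172. The lower ones were Sirpa, a receptor for the CD47 signal, 2.32-fold (1.87 to 2.88), and Mgl2, 2.64-fold (1.57 to 4.53), and the ratio of Sirpa in the 82 members was 0.789. Among the 82 members 2 genes of each of these 3 lists could be tested, and 0 were higher or lower.

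Adhesion and homing genes stood higher in the members. Of 13 tested 6 were higher and 1 was lower (median log2 ratio 0.93), and with the 82 members 6 of 11 and 0 (1.49). Itgal, which binds ICAM-1 on endothelium, stood at 359 against 51.0 CPM, 7.04-fold higher (4.48 to 11.6) and 14.1-fold with the 82 members. The integrin genes Itgb7 (4.54-fold), Itga4 (2.16-fold) and Itgb2 (2.20-fold) and the hyaluronan receptor gene Cd44 (2.13-fold) were higher too. Icam1 itself was the lower one, 2.14-fold (1.61 to 2.85), although with the 82 members its ratio was 0.719. Plaur, the urokinase receptor, was 4.33-fold higher (2.74 to 7.14), while its ligand Plau had 4 UMIs against 102 and was 35.9-fold lower (13.6 to 134).

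Receptors and growth factor signalling were divided. Of 8 chemokine receptors 1 was higher and 4 were lower (median log2 ratio -1.14), and with the 82 members 1 and 3 of 7. In all members the higher one, Ccr7, was carried by the Cd209a and Ccr7 group. Ccr2, on which the rule selected, stood at 702 against 459 and at 1177 in the 82 members. Cxcr4, the receptor that holds cells in marrow and at sites of CXCL12, stood at 811 in the 82 members against 301, and at 469 in all members. The complement anaphylatoxin receptors were lower, C3ar1 11.6-fold (6.79 to 21.4) and C5ar1 5.30-fold (3.07 to 9.65), or 5.68-fold and 2.24-fold with the 82 members. Csf1r stood at 228 against 515, 2.26-fold lower (1.81 to 2.83), yet at 501 in the 82 members. Csf2rb, the shared chain of the receptors for GM-CSF, IL-3 and IL-5, was 3.33-fold higher (2.35 to 4.84), and Tnfrsf1a, a TNF receptor, 2.35-fold higher (1.65 to 3.40). Over 16 receptor genes of colony-stimulating factors and cytokines, 3 were higher and 3 lower, and with the 82 members 7 and 2 of 15.

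Inflammatory ligands stood lower in the members, with exceptions. Of 14 chemokines 9 were lower and 1 higher (median log2 ratio -1.62), and with the 82 members 8 and 2 (-1.77). The list summed to 4801 CPM in members and to 15874 in the macrophages. Ccl4 alone stood at 1573 against 6211. Ccl12 had 1 UMI against 85, which is 119.6-fold lower (20.9 to 4781), Ccl7 was 19.2-fold lower (10.7 to 38.0) and Ccl2, the main ligand of CCR2, 6.91-fold lower (5.26 to 9.18) and 3.34-fold with the 82 members. Cxcl10, a T cell chemokine of the interferon response, was 5.29-fold lower (4.55 to 6.19), while Ccl22 was 3.91-fold higher (2.28 to 7.13). Ccl6 stood at 212 against 141 and at 456 in the 82 members. Cxcl2 stood at 1067 against 2357, 2.21-fold lower (1.99 to 2.45), but at 2457 in the 82 members, where the difference was gone.

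Cytokine genes followed a similar division, with 4 of 8 lower and 1 higher (median log2 ratio -0.99), and with the 82 members 4 and 1 of 7. Tnf was 6.93-fold lower (5.16 to 9.47) and Il10, an anti-inflammatory cytokine gene, 4.79-fold lower (2.87 to 8.32), and 2.03-fold with the 82 members. Osm, which encodes oncostatin M, was the higher one, 2.52-fold (1.55 to 4.25) and 5.57-fold with the 82 members. In the interleukin 1 family, Il1b stood level at 1569 against 1753, while Il1a was 13.4-fold lower (6.45 to 32.1) and the decoy receptor gene Il1r2 8.61-fold higher (4.20 to 20.5). Of the 97 member UMIs of Il1r2, 68 lay in the Cd209a and Ccr7 group, and with the 82 members 0 of 5 genes of this family were higher and 1 was lower. Il1b was in 61 members, 52 of which also had Lyz2.

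Macrophage identity and scavenging genes stood lowest. Of 10 tissue macrophage genes 9 were lower and 0 higher (median log2 ratio -2.94), and with the 82 members 8 were lower and 1 higher (-2.23). Pf4, a platelet factor gene that macrophages transcribe, had 6 UMIs, all in 1 member, against 518, and was 122-fold lower (55.5 to 333), or 51.4-fold with the 82 members. Mrc1, the mannose receptor, was 20.2-fold lower (13.9 to 30.6), and 21 of its 29 member UMIs lay in the Cd209a and Ccr7 group. Apoe was 12.2-fold lower (10.5 to 14.3) and Maf 7.23-fold (5.45 to 9.72). Adgre1, which encodes F4/80, was 5.42-fold lower (3.52 to 8.62). With the 82 members these differences were smaller, 5.64-fold for Apoe, 3.41-fold for Maf and 2.82-fold for Adgre1. Cd163 and Folr2, both markers of resident macrophages, were at 0 in the members.

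Of 11 scavenger and efferocytosis genes 9 were lower and 1 higher (median log2 ratio -2.69), and with the 82 members 6 of 10 were lower and 0 higher (-1.71). Stab1 was 37.5-fold lower (16.9 to 104), or 19.1-fold with the 82 members, and Gas6, the bridge between dying cells and phagocytes, 8.16-fold (4.14 to 17.9). The higher one was Cd36, a receptor for lipids, at 100 against 36.4 CPM, with 40 of its 58 UMIs in the Xcr1 group. The list summed to 835 CPM in members against 6364. Of 15 lysosome genes 9 were lower and 0 higher (median log2 ratio -1.06), among them Ctsd (4.47-fold) and Ctsb (3.07-fold). With the 82 members 4 of 15 were lower, Ctsd was 2.37-fold lower and Ctsb stood at 1222 against 2185. Psap, the precursor of sphingolipid activators, went the other way at 3775 against 2214 without reaching 2-fold.

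**Figure D5:**
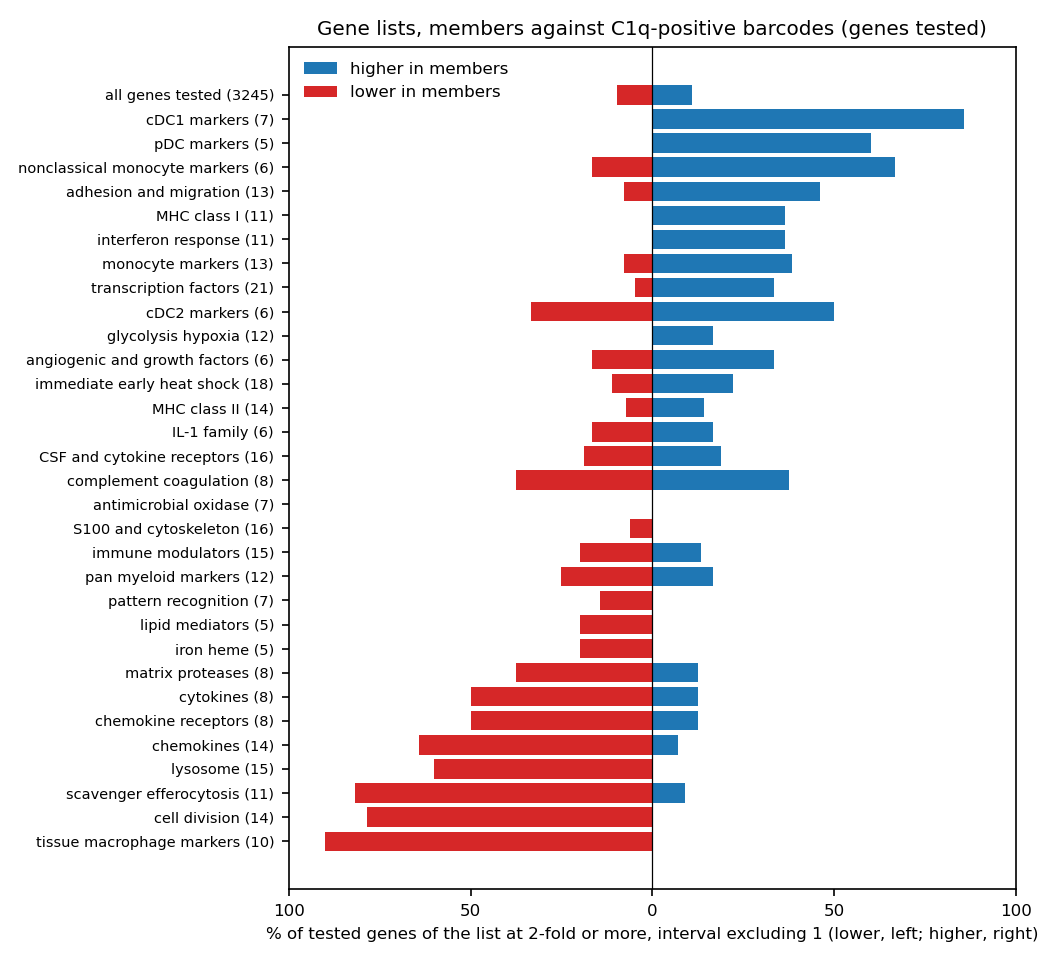
Bars give the percent of each list's tested genes (x axis, with the number tested beside the list name on the y axis) that were at least 2-fold higher (right) or lower (left) in members than in C1q-positive macrophages with an interval that excludes 1. Tissue macrophage genes lie to the left with 9 of 10 lower, interferon response genes to the right with 4 of 11 higher, and all genes tested have 10.8% higher and 9.68% lower.

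Interferon response genes stood higher or level, and antigen presentation genes depended on which members were counted. Of 11 interferon response genes 4 were higher and 0 lower (median log2 ratio 0.87), and with the 82 members 9 of 11 (1.62). Stat2, part of the factor that interferon activates, was 4.14-fold higher (2.65 to 6.75), Irf7 4.12-fold (2.68 to 6.58), or 7.65-fold with the 82 members, and Ifit2 3.87-fold (2.32 to 6.80). The interferon-inducible DNA sensor gene Ifi204 stood at 338 against 199, and at 729 in the 82 members. Of 11 MHC class I genes 4 were higher and 0 lower: the peptide transporter genes Tap1 and Tap2, the immunoproteasome gene Psmb9 and the nonclassical class I gene H2-T23, by 2.09-fold to 2.42-fold. With the 82 members 3 of 10 were higher and 0 lower. Of 14 MHC class II genes 2 were higher and 1 lower (median log2 ratio 0.54), whereas with the 82 members 0 of 11 were higher or lower and the median log2 ratio was -0.65. H2-Ob, which tempers peptide loading, and the co-stimulatory gene Cd80 were higher, and the protease gene Lgmn was lower. H2-Aa stood at 4363 against 2791 in all members but at 1638 in the 82, so its direction turned with the dendritic groups.

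Fc receptor genes also turned on which members were counted. Fcgr1 stood at 65.5 against 143 CPM, 2.19-fold lower (1.43 to 3.38), and at 147 in the 82 members. Fcgr3 stood at 63.8 against 150.5, 2.36-fold lower (1.55 to 3.65), and at 151 in the 82 members. When each barcode counted equally instead, the log2 ratio of Fcgr3 was 0.32. Cst3 was 3.22-fold higher in all members (2.98 to 3.48), and stood at 1666 against 1927 in the 82.

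Regulators of transcription were mostly higher or level. Of 21 tested 7 were higher and 1 lower (median log2 ratio 0.63), and with the 82 members 8 and 2 of 20. Nr4a2, an early response nuclear receptor gene, was 13.9-fold higher (8.15 to 25.8), at 472 against 34.0, with 116 of its 274 UMIs in the Xcr1 group and a ratio of 7.91 in the 82 members. Klf4, a factor that monocytes need, was 4.76-fold higher (3.06 to 7.73), and Nr4a3 3.74-fold (2.90 to 4.87), with a ratio of 1.31 in the 82 members. Hif1a, the factor of the response to low oxygen, was 2.37-fold higher (1.75 to 3.24). Spi1 was level, with a ratio of 1.08 (0.834 to 1.39). Of 18 immediate early and heat shock genes 4 were higher and 2 lower, and with the 82 members 6 and 1. Fos was among the higher ones at 1298 against 527, and Egr1 among the lower ones at 221 against 874, and 2.38-fold lower with the 82 members.

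Secreted and vascular factors and cell division close the comparison. Vegfa, which drives vessel growth, stood at 152 CPM against 65.5, 2.32-fold higher (1.49 to 3.71), and 3.61-fold with the 82 members, and Tgfb1 was even at 188 against 204. Pdgfb was 5.05-fold lower (2.91 to 9.22) and Csf1 had 2 UMIs against 24. C3, the central complement gene, was 2.35-fold higher (1.24 to 4.76) than in the macrophages, and 4.91-fold with the 82 members, although at 74.1 it was far below the 752 of all other barcodes. Cell division genes were lower for 11 of 14 and higher for 0 (median log2 ratio -2.28). Tpx2 of the spindle had 2 UMIs against 56 and a ratio of 0.0254 (0.00300 to 0.0960), Cenpf was 16-fold lower (6.96 to 45.0) and Mki67 4.85-fold lower (3.54 to 6.73). The list summed to 3926 CPM in the Xcr1 group, to between 721 and 1433 in the other groups, and to 4435 in the macrophages. These sums include the histone gene H2afz, at 1087 CPM in the macrophages. In members it had 764 UMIs outside the Siglech group, of which 176 lay in the 82 members. The sum of the Xcr1 group may rest largely on this gene and does not show how many of its members divide. With the 82 members 8 of 10 were lower and 0 higher (median log2 ratio -3.25).

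Outside all lists, P2ry10, a lysophospholipid receptor gene of leukocytes, had 168 UMIs against 3 and a ratio of 39.8 (13.4 to 195). Kmo and the inhibitory receptor gene Btla had 59 and 56 UMIs against 1 each, with lower bounds of 7.24 and 6.85. Of the 168 UMIs of P2ry10, 85 lay in the Xcr1 group and 57 in the Cd209a and Ccr7 group. Ctla2a, a protease inhibitor gene that also stood high in the other barcodes at 2378 CPM, was 20.7-fold higher than in the macrophages (13 to 35.2), with 268 of its 524 UMIs in 1 member. At the other end Gdf15 had 2 UMIs against 126 (ratio 0.0113, 0.00135 to 0.0416) and Fcrls 4 against 103, 36.2-fold lower (13.7 to 136).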

How the data were processed

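Gene expression was measured in single cells of 1 whole-uterus library by droplet capture and 3′ end counting. The deposited values are UMI counts, for which the authors used Cell Ranger 4.0.0 (per the file headers) and mm10, per the submitters' processing notes. Which annotation release was used, how cells were called and how reads that match several genes were counted was not given in the sources used here, so near-identical genes such as Ly6c1 and Ly6c2 remain uncertain. The matrix held 32287 features, and features with 1 symbol were summed to 32247 symbols.

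UMIs were summed over the barcodes of a group and divided by their total, with exact Poisson intervals. Ratios have exact conditional binomial intervals and shares Clopper-Pearson intervals, all at 95%, and a share of 0 is given the limit that 3 counts of the total allow. A gene was compared where both sides together held at least 50 UMIs. It was called higher or lower from 2-fold on, if the interval excluded 1, and the rule's own genes were left out of these counts. Where 1 side had 0 UMIs, "at least" folds allow it 3 UMIs over the group. Shares were also taken with each barcode thinned to 2000 UMIs, which left out 41 members. On simulated counts for the comparison with C1q-positive macrophages, this call was made for 90% of 50 genes raised 3-fold, 100% of 50 raised 6-fold and 8% of 50 raised 1.5-fold. The simulated sums were Poisson draws, so these rates do not cover genes whose UMIs lie mostly in a few barcodes. Python 3.11.15, numpy 2.4.6, scipy 1.17.1, pandas 2.3.3, scanpy 1.11.5 (Scrublet) and matplotlib 3.10.9 were used. Promoters are RefSeq's on GRCm38.p6.

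The members and the 46 gene lists were chosen with earlier results of these data known. Named genes are those of the rule, a set always named (such as Csf1r and Vegfa), in each list and comparison the 2 highest and 2 lowest that met the size rule, and the 15 highest and 10 lowest against other barcodes and 10 of each against the macrophages. Most of these and some others, chosen after their values were seen, are printed, and some results are not reported here. Alternatives varied the conditions of the rule, the quality filter, doublets, stromal markers, the scaling, the UMI minimum and the thinning depth. Leaving out the groups with dendritic genes was added after the data were seen.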

Additional observations from a re-analysis of the deposited data

Results flagged for a closer look

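The reference holds the added sequence sfGFP-Myc, which enters no comparison above. The library, for which no genotype is labelled, held 25 UMIs of it in 16 barcodes, with at most 5 in 1 barcode. Of these, 22 UMIs in 13 barcodes passed the quality filter. Members held 0 of them and C1q-positive macrophages 0, NK-gene barcodes 1, epithelial-gene barcodes 3 and the barcodes of no named class 18. The added sequence iCre had 1 UMI, in an epithelial-gene barcode. The samples labelled Prl8a2icre/+ Sun1-GFPLsL/+ and Sun1-GFPLsL/+ are not analysed here, so these counts were not set against another library.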

How the results depend on the processing

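The members made up 6.47% of the barcodes, and 5.15% with a monocyte sum of at least 5, 4.90% with no quality filter, 5.38% without the Siglech and Xcr1 groups and 4.58% when the Cd209a and Ccr7 group was left out too. Against C1q-positive macrophages 637 genes were higher and 633 lower where 20 UMIs in all were enough, and 62 and 58 where 200 were needed. Between MHC class II-high and -low members these counts were 353 and 556, and 46 and 52, and between members with and without Ly6c2 465 and 262, and 40 and 24. With the mean over cells of each cell's level, 118 genes were higher in members with Ly6c2. Without the Siglech and Xcr1 groups 73 genes were higher and 86 lower in MHC class II-high members, and 92 and 62 with Ly6c2. For MHC class II the members kept were divided again at their own median. Without all 3 groups these were 32 and 26, and 41 and 15, and 1566 genes were lower than in all other barcodes. The numbers of genes tested fall with the UMI minimum and with the members left out.

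Members with at least 3 UMIs of a marker list at 2000 UMIs per barcode were 59.7% for nonclassical monocytes, 2.60% for neutrophils, 28.6% and 27.3% for the first and second conventional dendritic type, 23.4% for the Ccr7 type, 23.4% for plasmacytoid cells and 37.7% for tissue macrophages. At 1000 UMIs they were 42.7%, 0%, 16.4%, 12.7%, 12.7%, 7.27% and 26.4%. Without the Siglech and Xcr1 groups the shares were 71.4% for nonclassical monocytes, 3.57% for the first dendritic type and 51.8% for tissue macrophages, and without all 3 groups 73.2%, 4.88% and 63.4%.

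Of 444 ratios of named genes 345 met the size rule. Under the alternatives 4275 values of these were computed, of which 577 left the interval of the reported value, 149 no longer met the size rule and 8 changed sign. The sign changes against C1q-positive macrophages were Fcgr3, with a log2 ratio of 0.32 by the mean over cells and 0.0023 without all 3 groups, Cst3 with -0.12 without the Siglech and Xcr1 groups and -0.21 without all 3, and Fcgr1 with 0.034 and Cxcl2 with 0.060 without all 3. Against all other barcodes they were Ccr7 with -2.15 and P2ry10 with -1.13 without all 3 groups. The cause was not tested beyond the members left out.

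No paired analysis was possible because 1 library was used and nothing came from a test. With 118 members, 41 of them under 2000 UMIs, absence of a gene in a member is not evidence that the cell lacks it.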
